A study of Saccharomyces cerevisiae with 12 samples.

Results

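The genes described here encode factors that build ribosomes: the 56 of 6645 genes in the expression table whose names consist of UTP, NOP, RRP or NOC and a number. Of these, 18 are UTP, 17 are NOP, 18 are RRP and 3 are NOC genes. The rule reads names and no measured value, so it takes in only part of the ribosome biogenesis machinery, and 127 other factors of the same pathway that it does not reach were read from a separate list.

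The study asked how yeast cells of the same culture that differ in the redox state of their cytosolic glutathione differ in their transcripts. Haploid wild type BY4741 cells of Saccharomyces cerevisiae carried the sensor Grx1-roGFP2, a GFP fused to a glutaredoxin whose fluorescence follows glutathione oxidation, and dead cells were gated out with propidium iodide. After 48 hr or 72 hr of growth the cells were sorted by sensor fluorescence into an oxidized and a reduced subpopulation, which gave 4 groups (oxidized 48 hr, reduced 48 hr, oxidized 72 hr and reduced 72 hr) of 3 libraries each. All groups share the strain, with its leu2, his3, met15 and ura3 alleles, the plasmid-borne sensor and the casein amino acid medium. No chemical treatment separates them, and the subpopulations were defined by the gate, not by genotype. Values are PPM, deduplicated 3′ reads of a gene scaled by the total reads of its library.

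Ribosomes are assembled in the nucleolus, where RNA polymerase I makes a long precursor that is folded, modified and cut into the rRNAs of both subunits. The SSU processome, a large particle built on the nascent transcript from the UTP-A, UTP-B and UTP-C complexes and the U3 snoRNP, releases the small (40S) subunit precursor, while a separate set of factors matures the large (60S) subunit and the RNA exosome trims and degrades RNA from its 3′ end. In yeast the genes for these factors form a large regulon that is transcribed strongly in growing cells and falls when nutrients run out. Many of their promoters carry the PAC motif, bound by the repressors Dot6 and Tod6, and the RRPE motif, bound by Stb3.

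Total reads per library ran from 90403 to 241084, so that 1 read was worth 4.15 to 11.1 PPM, and the 56 genes together took 439 to 1176 reads of a library. The median member had 82.5 reads over all 12 libraries, so depth limits what can be said of single genes. The a-specific pheromone gene MFA1 averaged 540 PPM against 51.7 PPM for the alpha-specific MF(ALPHA)1, the pattern of MATa cells, although the study's methods write MATα. Of the marker genes of the strain, MET17 (MET15) had 0 reads and LEU2 8 reads in all 12 libraries together, while HIS3 and URA3 averaged 214 and 1565 PPM.

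The promoters were read for PAC and RRPE because these motifs are known from this regulon, and the rule on names did not use them. In the window from 250 bases before to 50 bases after the first base of the start codon, on either strand, the PAC motif GCGATGAG stood in 24 of 56 members (42.9%). It stood in 236 of 5907 genes (4.0%), a number that includes the members, as do the shares of all genes below. Its shorter form CGATGAG, which lies within the longer one, stood in 33 members (58.9%) against 7.11% of all genes, and the RRPE motif GAAAAATTT in 27 members (48.2%) against 6.16%. The short PAC and RRPE stood together in 16 members (28.6%) against 1.85% of all genes. Neither was matched in 12 members, namely RRP9, RRP14, RRP15, RRP40, RRP42, RRP45, RRP46, NOC3, NOP9, NOP10, NOP53 and UTP22, which include 4 of the 7 exosome subunits. A match is a run of letters and not a shown binding site, and only exact matches were counted.

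The following promoters are printed because the results turn on these genes or because they show both motifs. Each is RefSeq sequence of build R64 (sacCer3), 300 bases, read 5′ to 3′ on the strand of the gene, with the short PAC or RRPE matches in capitals. UTP6, the most abundant member, has a PAC that begins 106 bases before the start codon (chrIV:1358853-1359152, minus strand). RRP1, which was lower in oxidized cells, has a PAC that begins 120 bases before it (chrIV:618257-618556, minus strand). RRP46, which was higher in oxidized cells, has neither motif (chrVII:676293-676592, minus strand). UTP21 has an RRPE pair and a PAC within a short stretch (chrXII:937184-937483, minus strand), and NOP58 has both motifs in the reverse orientation (chrXV:898311-898610, minus strand).
UTP6: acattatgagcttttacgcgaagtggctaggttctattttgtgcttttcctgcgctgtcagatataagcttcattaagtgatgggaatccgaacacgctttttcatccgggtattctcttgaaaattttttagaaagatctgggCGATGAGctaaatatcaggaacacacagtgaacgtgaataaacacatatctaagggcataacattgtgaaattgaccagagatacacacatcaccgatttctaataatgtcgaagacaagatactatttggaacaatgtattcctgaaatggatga
RRP1: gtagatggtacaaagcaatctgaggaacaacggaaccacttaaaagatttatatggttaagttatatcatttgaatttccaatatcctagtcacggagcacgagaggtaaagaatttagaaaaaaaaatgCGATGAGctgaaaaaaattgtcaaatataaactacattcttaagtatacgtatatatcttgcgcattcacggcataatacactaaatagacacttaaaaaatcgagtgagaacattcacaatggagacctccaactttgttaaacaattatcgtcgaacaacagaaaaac
RRP46: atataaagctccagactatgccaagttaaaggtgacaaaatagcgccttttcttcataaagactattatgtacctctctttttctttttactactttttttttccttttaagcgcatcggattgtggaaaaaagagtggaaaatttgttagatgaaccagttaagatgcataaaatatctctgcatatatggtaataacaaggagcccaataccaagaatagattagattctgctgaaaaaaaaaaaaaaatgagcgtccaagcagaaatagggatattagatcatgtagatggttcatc
UTP21: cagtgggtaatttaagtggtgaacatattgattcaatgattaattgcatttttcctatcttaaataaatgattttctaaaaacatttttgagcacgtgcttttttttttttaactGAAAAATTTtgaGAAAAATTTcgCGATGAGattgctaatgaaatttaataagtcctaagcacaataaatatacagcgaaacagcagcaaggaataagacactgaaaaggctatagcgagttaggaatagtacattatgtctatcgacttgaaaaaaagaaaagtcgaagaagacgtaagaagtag
NOP58: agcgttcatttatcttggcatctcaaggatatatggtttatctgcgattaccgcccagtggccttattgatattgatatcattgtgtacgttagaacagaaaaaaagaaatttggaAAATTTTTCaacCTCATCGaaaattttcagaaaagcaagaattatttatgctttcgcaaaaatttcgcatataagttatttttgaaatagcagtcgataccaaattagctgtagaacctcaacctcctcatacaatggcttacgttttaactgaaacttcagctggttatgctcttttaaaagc

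Most matches in the members lay in the same zone before the start codon. Of 34 short PAC sites in the members, 25 (73.5%) began 80 to 140 bases before the start codon, against 34.3% of 402 sites in other genes, and for RRPE the counts were 23 of 33 sites (69.7%) and 40.4% of 359 sites. This zone was chosen after the positions were seen, and the remaining sites began at positions from -229 (UTP8) to 5 (UTP4), in bases from the start codon. In the 16 members with both motifs the nearest pair began 25 bases apart in the median, and at most 40 bases apart in 13 of them.

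**Figure D1:**
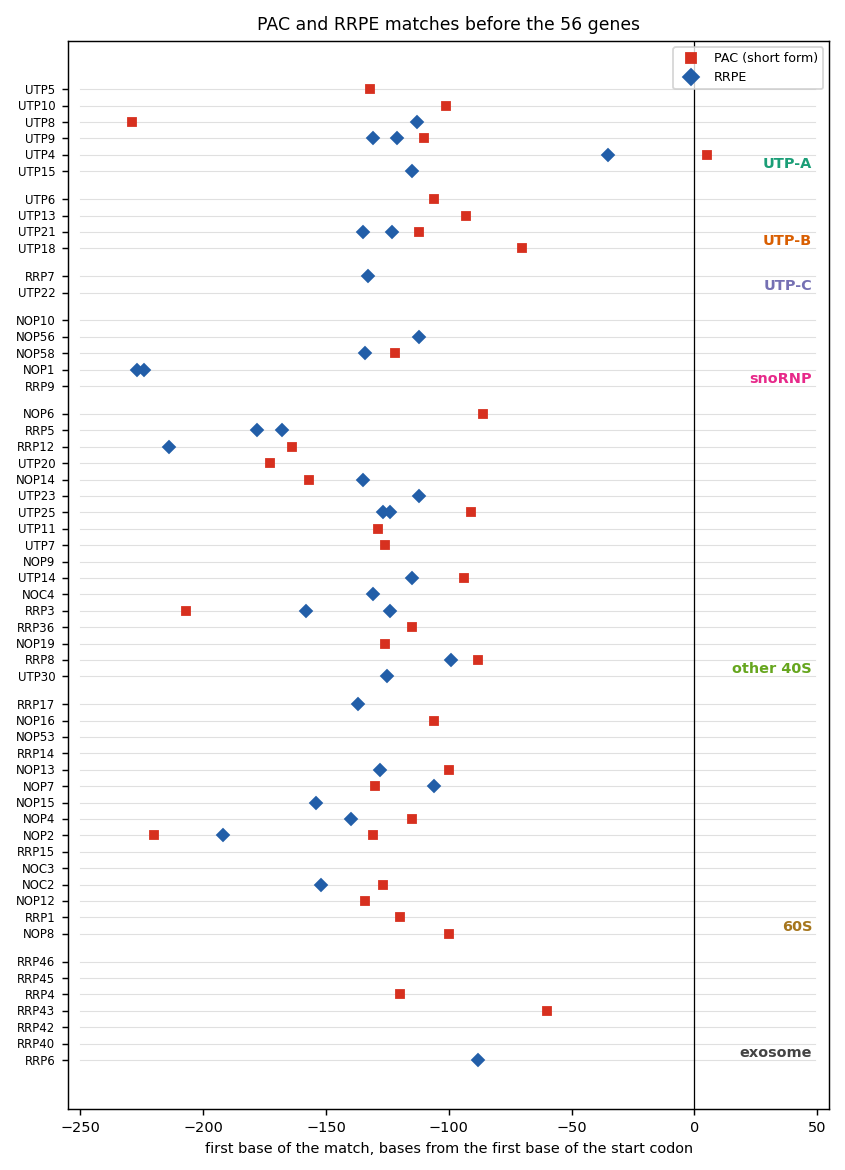
Positions of exact PAC (short form, red squares) and RRPE (blue diamonds) matches before the 56 members, which are grouped by role with the most abundant first. The horizontal axis is the first base of a match in bases from the start codon, and 12 genes, among them RRP46 and NOP10, have no match.

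Across all 12 libraries the mean level of a member ran from 12.4 to 1924 PPM with a median of 44.8 PPM. Because reads are counted in a window of fixed length at the 3′ end, these levels do not scale with gene length. UTP6 at 1924 PPM stood alone, followed by NOP10 at 253.5, NOP56 at 146, RRP46 at 124 and NOP58 at 122 PPM, while UTP30 (12.4), UTP18 (14.7) and RRP8 (16.0 PPM) were the lowest. No other member was within 7.59-fold of UTP6, the 58th of all genes by level, and UTP6 alone gave 32.4% to 43.7% of the summed PPM of the members in a library. Of the members 39 were above 0 in every library, and the 2 members with the most zeros were at 0 in 3 libraries.

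UTP6 encodes a subunit of UTP-B, and its level did not pass the test in any comparison. It stood at 1903, 2060.3 and 1824 PPM in oxidized cells at 48 hr and at 1966, 2139.7 and 2143 PPM in reduced cells. At 72 hr it stood at 1514, 2099 and 1951 PPM in oxidized cells and at 1927, 1753 and 1814 PPM in reduced cells. Oxidized and reduced cells overlapped at both ages, while in reduced cells all 48 hr libraries lay above those of 72 hr. With 3550 reads UTP6 had the narrowest interval of the 49 members tested. The averaged redox difference was -0.05 (95% interval -0.26 to 0.15) on the log2 scale, and it was 0.02 with median-of-ratios scaling. The other UTP-B subunits in the set, UTP13, UTP21 and UTP18, averaged 33.7, 18.3 and 14.7 PPM, so the level of UTP6 was not that of its complex.

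The sequence under the counting window of UTP6 was unusual. The window, taken here from the end of the coding sequence because the termination sites used by the authors are not given in the sources used here, holds a run of 35 A on the sense strand, the longest of 5923 genes, whose median was 6. The libraries were primed with oligo-dT. The 24 genes with a run of at least 20 A had levels from 23.2 to 1924 PPM with a median of 75.3 PPM, against 52.5 PPM over all matched genes. NOP13, with a run of 16 A the next among the members, averaged 65.9 PPM. The window also overlaps that of ADA2 by 190 bp on the opposite strand, and ADA2 averaged 294.7 PPM. The part of the A run and of the overlap in the UTP6 level was not tested.

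**Figure D2:**
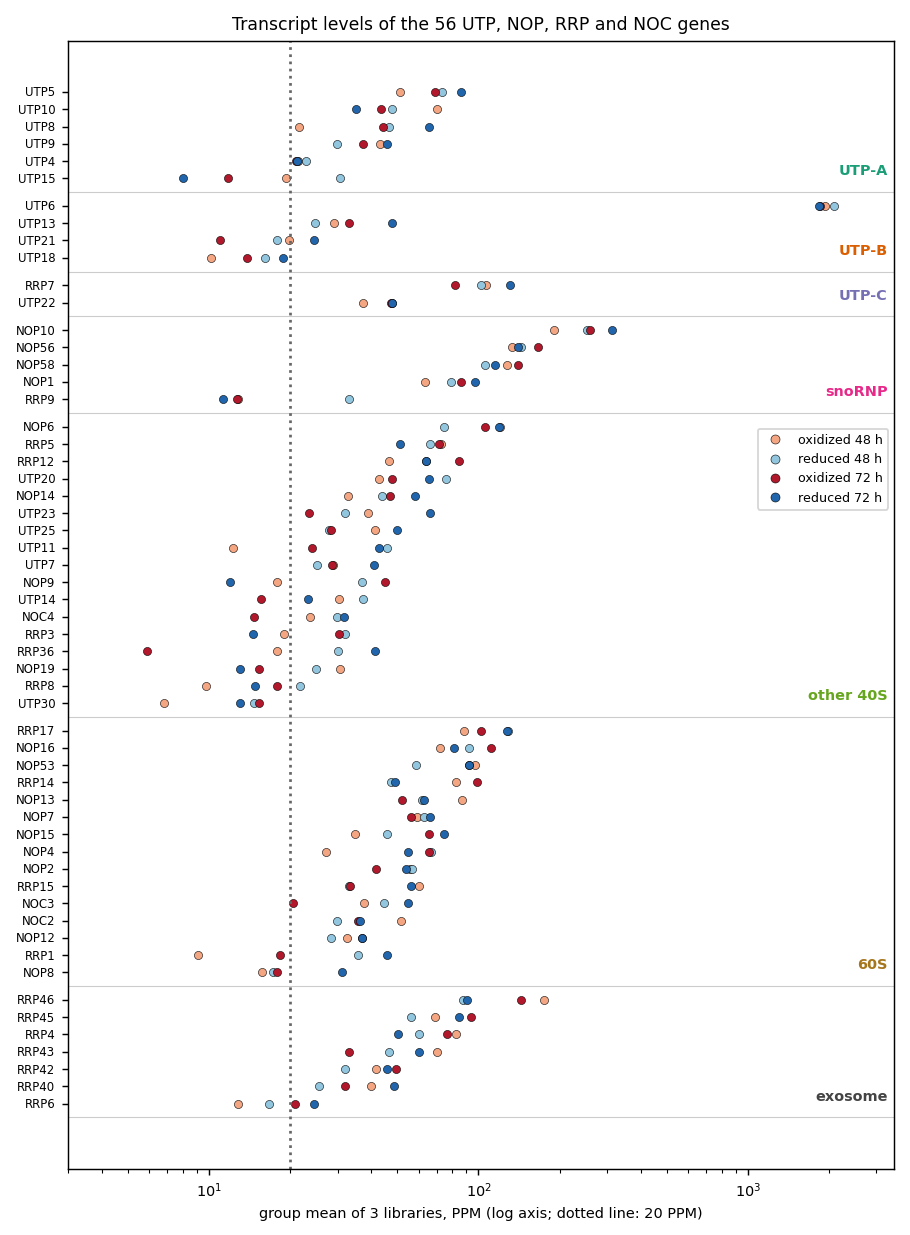
Mean PPM of each of the 56 members in the 4 groups (points, 3 libraries each, log axis), grouped by role and ordered by level. UTP6 lies near 1924 PPM, apart from all others, and the 7 members with a mean under 20 PPM were not tested.

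Of the 56 members 49 averaged at least 20 PPM and entered the tests. The 7 below were UTP30, UTP18, RRP8, UTP15, RRP9, UTP21 and RRP6, with means of 12.4 to 18.7 PPM. Each test compared log2(PPM + 10) between groups with limma over all 4776 genes of at least 20 PPM, with Benjamini-Hochberg adjustment over those genes and a threshold of 0.05. Differences on this scale understate those of low genes.

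Few of these genes passed the test between oxidized and reduced cells. The shares over all genes given beside them are not matched for level. The median of a library was 36.1 to 50.7 PPM over the 56 members and 65.3 to 79.5 PPM over all tested genes. The 56 include the 7 members below the filter, which can widen this gap. Genes at lower levels have fewer reads to show a difference, so fewer calls do not mean that the members are unchanged. At 48 hr 0 of 49 members passed, while 3.85% of all tested genes did. At 72 hr 0 of 49 passed against 9.61% of all genes. In the average of both ages 2 of 49 passed against 11.9% of all genes, RRP46 higher and RRP1 lower in oxidized cells. At an unadjusted p under 0.05 in limma there were 6, 6 and 8 members, where all genes gave 14.6%, 20.4% and 23.2%. None of the 7 low members passed in a fit without the filter.

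As a set the members had medians below 0, as had the table as a whole, and the medians were not compared by a test. The median redox difference of the members was -0.07 at 48 hr, -0.17 at 72 hr and -0.07 on average, and the medians of all tested genes were -0.07, -0.11 and -0.08. With median-of-ratios scaling the members stood at -0.04, -0.10 and -0.01 and all genes at -0.01, -0.04 and -0.01. In the average 19 of 49 members were above 0, against 41.3% of all genes. The differences of a member had the same sign at both ages in 28 of 49 cases (10 higher and 18 lower in oxidized cells), against 61.4% of all genes. Summed over the members without UTP6, the levels were 2851 ± 97.4 PPM in oxidized and 2888 ± 118 PPM in reduced cells at 48 hr, and 2999 ± 197 and 3256 ± 109 PPM at 72 hr (SD, n = 3). The libraries overlapped at both ages, at 72 hr with 2777 to 3153 PPM in oxidized and 3133 to 3341 PPM in reduced cells. PPM are shares of a library, and in such bulk samples fewer cells that express a gene and less of its RNA per cell cannot be told apart.

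The data bound the size of a redox difference more tightly for the average than for an age. In the average the 95% interval lay within 2-fold on the scale of PPM + 10, in both directions, for 35 of 49 members. The median half-width was 0.64 on the log2 scale. At 48 hr the interval lay within these bounds for 9 and at 72 hr for 12 members, with a median half-width of 0.91. A 2-fold difference at a single age was therefore not excluded by the interval for most members. In PPM itself these bounds are wider than 2-fold, most of all for members at low levels. Of the members tested, 41 averaged 20 to 100 PPM.

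**Figure D3:**
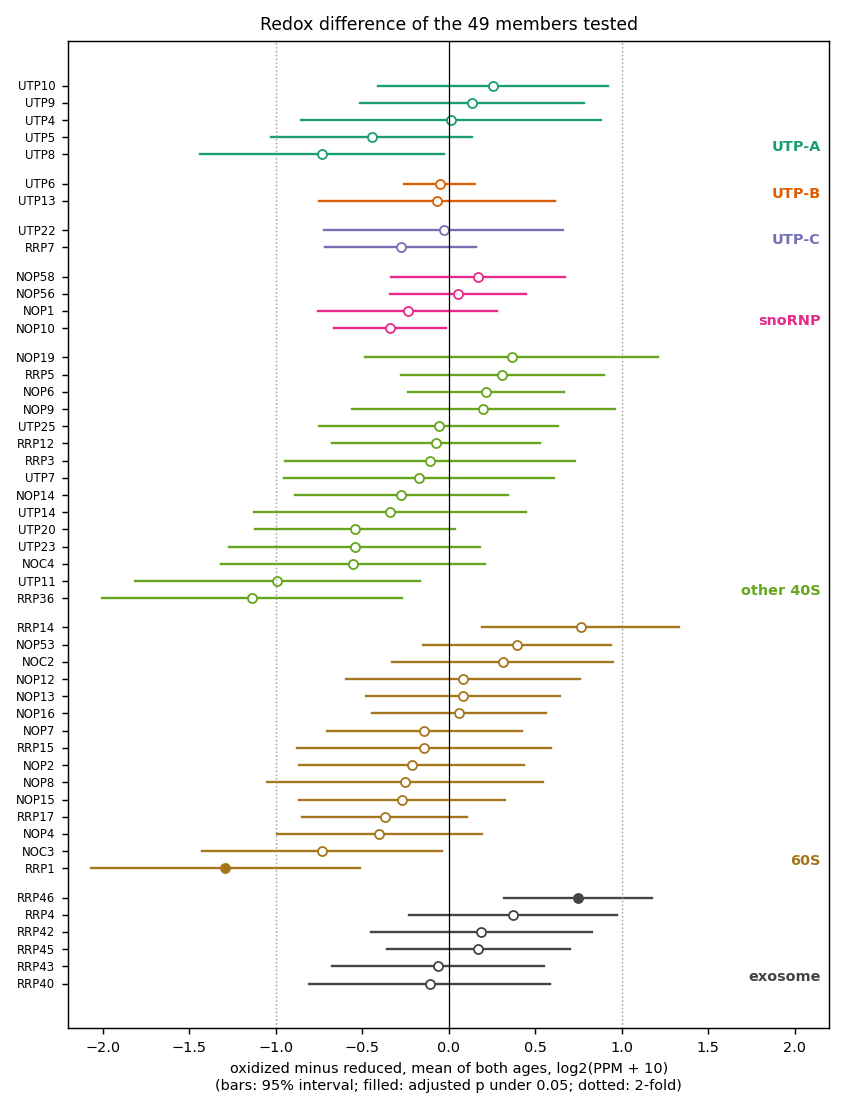
Averaged redox difference (oxidized minus reduced, log2(PPM + 10)) of the 49 members tested, with 95% intervals from limma, grouped by role. RRP46 at 0.75 and RRP1 at -1.29 are the filled points that passed the threshold. Most intervals include 0 and lie within the dotted lines, which mark 2-fold on the scale of PPM + 10.

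RRP46, a ring subunit of the RNA exosome, was higher in oxidized cells. At 48 hr it stood at 210.2, 186 and 126 PPM in oxidized cells and at 104, 75.5 and 82.7 PPM in reduced cells. At 72 hr it stood at 105, 180.3 and 147 PPM in oxidized cells and at 89.4, 91.9 and 90.2 PPM in reduced cells. No library of one subpopulation overlapped those of the other at either age. The averaged difference was 0.75 (SE 0.21) on the log2 scale, 1.68-fold, with an adjusted p of 0.0128 in limma, and it rested on 128 reads in oxidized and 92 in reduced cells. The call was lost without oxidized 72 hr replicate 2 (adjusted p = 0.0557). Its counting window overlaps that of VAS1, the valyl-tRNA synthetase gene, by 230 bp on the opposite strand, and VAS1 showed -0.09 (adjusted p = 0.842) in the same comparison.

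RRP1, a 60S precursor protein, was lower in oxidized cells, from few reads. At 48 hr it stood at 22.1, 0 and 5.27 PPM in oxidized cells and at 29.0, 25.2 and 52.6 PPM in reduced cells. At 72 hr it stood at 41.9, 7.21 and 5.89 PPM in oxidized cells and at 44.7, 42.4 and 50.7 PPM in reduced cells. The libraries did not overlap at either age, although the highest oxidized library at 72 hr lay just under the lowest reduced one. The averaged difference was -1.29 (SE 0.39, adjusted p = 0.0188 in limma) on 11 reads in oxidized and 41 in reduced cells, a ratio of 0.324 with an exact interval of 0.150 to 0.642 that covers counting error only. The call was lost without oxidized 48 hr replicate 2, reduced 48 hr replicate 3, oxidized 72 hr replicate 2 or oxidized 72 hr replicate 3 (adjusted p of 0.0557 to 0.0669), and with a pseudocount of 1 PPM the value was -2.26 with an adjusted p of 0.0653. SSS1, on the same strand with an overlap of 8 bp and 343.6 PPM, showed -0.27 (adjusted p = 0.246).

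**Figure D4:**
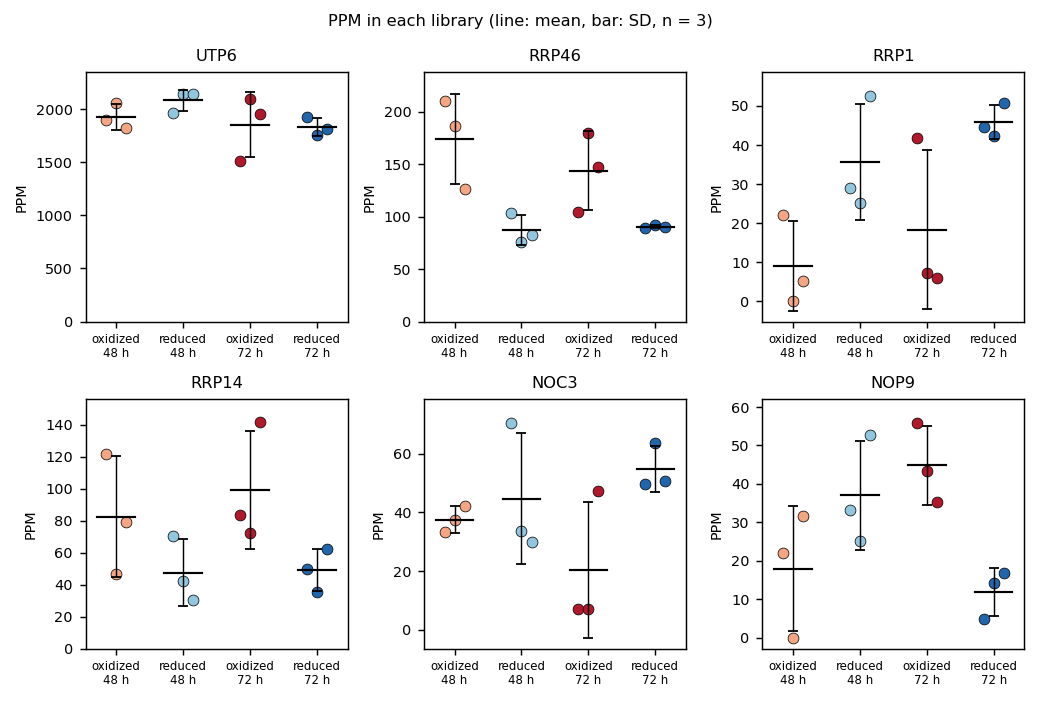
PPM of 6 members in each library (points), with the mean (line) and SD (bar) of 3 libraries per group. UTP6 overlaps between oxidized and reduced cells at both ages, RRP46 and RRP1 do not overlap between oxidized and reduced cells at either age, and NOP9 overlaps at 48 hr and not at 72 hr.

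By role, the exosome subunits were the group with the highest median difference, and no other role group had a gene higher in oxidized cells past the threshold. Of the 6 subunits tested, RRP4 and RRP40 are the RNA-binding cap proteins, and RRP42, RRP43, RRP45 and RRP46 are ring proteins. All 6 had differences above 0 at 48 hr (median 0.35), and RRP46 had the largest value at 0.90. None of them passed the test at 48 hr, against 3.85% of all tested genes. At 72 hr 4 of 6 were above 0 (median 0.12), and RRP43 and RRP40 were at -0.61 and -0.52. The other 10 exosome and TRAMP subunits tested, which the rule does not reach, had a median of -0.15 in the average with 4 above 0. Of these 10, 0 were past the threshold, against 11.9% of all tested genes. The nuclear exonuclease subunit RRP6 averaged 18.7 PPM and was not tested.

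The UTP-A, UTP-B and UTP-C groups act on the nascent precursor. None of their tested members passed, where 11.9% of all tested genes did in the average. UTP-A (UTP5, UTP10, UTP8, UTP9 and UTP4 tested) had a median of 0.01 in the average with 3 of 5 above 0. UTP5 led this group in level at 69.9 PPM with a difference of -0.45, and UTP8 had the largest difference at -0.73 (adjusted p = 0.194). In UTP-B, UTP13 stood at -0.07. In UTP-C, RRP7 at 105 PPM and UTP22 at 45.1 PPM stood at -0.28 and -0.03, and the signs of UTP13 and UTP22 turned under some alternatives.

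RRP7 was singled out after its values were seen, because its libraries separated at 72 hr and not at 48 hr. It stood at 88.5, 121 and 111 PPM in oxidized and at 108, 92.3 and 105 PPM in reduced cells at 48 hr, where the groups overlapped. At 72 hr it stood at 83.7, 79.3 and 82.5 PPM in oxidized and at 119, 127 and 147 PPM in reduced cells, where they did not. The difference at 72 hr was -0.61 (adjusted p = 0.249 in limma), and the change of the difference with age, -0.67, had an adjusted p of 0.707. The counting window of RRP7 overlaps that of STE50 by 207 bp on the opposite strand. STE50 was lower in oxidized cells at 72 hr (-1.50, adjusted p = 0.0121 in limma), with -0.67 at 48 hr (adjusted p = 0.502). The part of this overlap in the RRP7 values was not tested.

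The snoRNP proteins are parts of particles that modify or process rRNA. Of these proteins 0 of 4 tested passed, where 11.9% of all tested genes did in the average. NOP56 and NOP58, core proteins of box C/D particles, had averaged differences of 0.05 and 0.17, whose signs turned with a library left out, and NOP1, the methyltransferase fibrillarin, -0.24. NOP10, a core protein of the H/ACA particles that make pseudouridine, stood at 177, 177 and 216 PPM in oxidized and at 232, 260.1 and 263 PPM in reduced cells at 48 hr, without overlap. At 72 hr the groups overlapped, with 335, 202 and 242 PPM in oxidized and 333, 289.8 and 316 PPM in reduced cells. The averaged difference of NOP10 was -0.34 (95% interval -0.67 to -0.01) with an adjusted p of 0.192. RRP9, the U3-specific protein, averaged 17.5 PPM and was not tested.

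Of the 15 other 40S factors tested, 4 were above 0 in the average (median -0.17) and none passed, against 11.9% of all tested genes. NOP6, the most abundant of them at 105 PPM, had a difference of 0.21. RRP36, needed for early cleavages, had the largest difference at -1.14 (SE 0.43, adjusted p = 0.0801). Its libraries stood at 22.1, 0 and 31.6 PPM in oxidized and 41.5, 33.6 and 15.0 PPM in reduced cells at 48 hr, and at 0, 0 and 17.7 PPM in oxidized and 54.6, 63.6 and 5.63 PPM in reduced cells at 72 hr. They overlapped at both ages, at 72 hr through the low reduced replicate 3, and RRP36 passed the averaged test without that library (adjusted p = 0.0174), without oxidized 48 hr replicate 3 (0.0480) or without oxidized 72 hr replicate 3 (0.0434). UTP11, an SSU processome protein, followed at -0.99 (adjusted p = 0.116) on 18 reads in oxidized and 44 in reduced cells, and it passed without oxidized 48 hr replicate 3 (0.0224) or reduced 48 hr replicate 2 (0.0278). RRP36 and UTP11 were singled out after their values were seen.

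Of the 15 factors of the 60S subunit, 6 were above 0 in the average (median -0.15). Of the 15, 1 passed, RRP1, against 11.9% of all tested genes. RRP17, the most abundant at 112 PPM and known as an exonuclease of the 5′ ends of 60S rRNAs, had a difference of -0.37 (adjusted p = 0.378). RRP14, a protein of early precursors, had the largest positive difference of the members and was picked after its values were seen. It stood at 122, 46.6 and 79.1 PPM in oxidized and at 70.5, 42.0 and 30.1 PPM in reduced cells at 48 hr, which overlapped, and at 83.7, 72.1 and 141 PPM against 49.7, 35.3 and 61.98 PPM at 72 hr, which did not. Its averaged difference was 0.76 (SE 0.28, adjusted p = 0.0741), and it passed without oxidized 48 hr replicate 2 (0.0252), without reduced 48 hr replicate 1 (0.0480) or with median-of-ratios scaling (0.0497). NOC3, which acts in 60S export and in DNA replication, was likewise picked afterwards, with 6.98, 7.21 and 47.2 PPM in oxidized and 49.7, 63.6 and 50.7 PPM in reduced cells at 72 hr. Its difference there was -1.33 (SE 0.49, adjusted p = 0.0792), and it passed without oxidized 72 hr replicate 3, its high library (adjusted p = 0.0141).

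Groups that do not overlap were no more frequent among the members than in the table. At 48 hr the libraries of oxidized and reduced cells did not overlap for 7 of 49 members, against 17.5% of all tested genes, with RRP43, RRP46 and NOC2 higher and UTP20, RRP1, NOP10 and NOP4 lower. At 72 hr this held for 8 of 49 members against 26.0%, with RRP46, NOP9 and RRP14 higher and RRP7, RRP1, NOC3, UTP13 and UTP23 lower. RRP46 and RRP1 were the members in both sets.

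No member passed the test between 48 hr and 72 hr. In reduced cells 0 of 49 members passed, against 2.32% of all genes, in oxidized cells 0 against 0.44%, and in the average 0 against 2.3%. At an unadjusted p under 0.05 in limma there were 2, 4 and 3 members, where all genes gave 12.0%, 9.90% and 13.3%. The median member difference (72 hr minus 48 hr) was 0.14 in reduced and 0.06 in oxidized cells, and the medians of all tested genes were 0.10 and 0.08. The summed level without UTP6 was 2761 to 2993 PPM in reduced cells at 48 hr and 3133 to 3341 PPM at 72 hr, without overlap, and 2760 to 2953 PPM and 2777 to 3153 PPM in oxidized cells, with overlap.

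Libraries of the 2 ages did not overlap for 7 of 49 members in reduced cells (17.9% of all genes) and for 7 in oxidized cells (14.2%). In reduced cells RRP7, NOP6, NOP10, UTP13 and RRP40 stood higher at 72 hr, and UTP6 and NOP9 lower. In oxidized cells NOP14, UTP8, NOP9 and NOP4 stood higher and RRP7, RRP43 and NOC2 lower. RRP7 and NOP9 were in both sets, in opposite directions.

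In the test of whether the redox difference changed with age 0 of 49 members passed, while 0.775% of all genes did, and 2 members had an unadjusted p under 0.05 in limma. This test bounds little. The 95% interval lay within 2-fold on the scale of PPM + 10, in both directions, for 2 of 49 members (median half-width 1.28). A change of over 1 on the log2 scale in either direction was seen in 8 members. NOP9, an RNA-binding protein of the small subunit pathway, had the largest change and was named after its values were seen. It stood at 22.1, 0 and 31.6 PPM in oxidized and at 33.2, 25.2 and 52.6 PPM in reduced cells at 48 hr, with overlap. At 72 hr it stood at 55.8, 43.3 and 35.4 PPM in oxidized and at 4.97, 14.1 and 16.9 PPM in reduced cells, without overlap. The difference went from -0.94 to 1.34, a change of 2.29 (SE 0.76) that was not past the threshold (adjusted p = 0.209), on 52 reads in all. Without oxidized 48 hr replicate 2, the library at 0, the difference at 48 hr was -0.32 and the change 1.66. Over the fits that omit 1 library the change ran from 1.66 to 2.69 and its adjusted p from 0.113 to 0.44.

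Calls were few in the wider pathway too. Of 113 other ribosome biogenesis factors tested, 1 passed at 48 hr (3.85% of all genes did), 2 at 72 hr (9.61%) and 1 in the average (11.9%), all higher in oxidized cells, and the median averaged difference was -0.03. RLP7 at 48 hr (0.98, adjusted p = 0.0447) and MRT4 and NAF1 at 72 hr (1.07 and 1.27, adjusted p = 0.0324 and 0.0428) were named after their values were seen, and they lost the call without any of 7, 4 and 5 single libraries. The gene in the average was BUD20, a 60S export factor, at 0.57 (SE 0.16, adjusted p = 0.0141), and not past the threshold without reduced 48 hr replicate 3 (0.0597). With age, averaged over both redox states, 1 of the 113 passed (2.3% of all genes), GAR1, an H/ACA snoRNP protein, which was higher at 72 hr by 0.81 (adjusted p = 0.0480) and lost the call without any of 10 single libraries. It too was named after its values were seen. Among 13 genes of RNA polymerase I and its factors 0 passed in the average (median -0.10). Of the 137 cytosolic ribosomal protein genes tested, 27 (against 41.3% of all genes) were above 0 in the average, with a median of -0.09. In this list 0 genes passed higher in oxidized cells, and the genes lower were 1 at 48 hr (RPL41B), 3 at 72 hr (RPL41A, RPL41B and RPL40B) and 2 in the average (RPL41A and RPL41B). These were named after their values were seen. RPL41A and RPL41B are near-identical copies whose reads may not be told apart, and RPL41A lost its call at 72 hr without any of 6 single libraries and in the average with median-of-ratios scaling (adjusted p = 0.0595). The 312 tested genes with a short PAC outside the set had 15 higher and 16 lower calls in the average (9.94%, median -0.02).

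Of the 9 regulators of the regulon tested, DOT6 and CRF1 passed in the average, where 11.9% of all tested genes passed. DOT6, the repressor that binds PAC, was higher in oxidized cells in the average by 0.63 (SE 0.15, adjusted p = 0.00146 in limma). At 48 hr it stood at 354, 541 and 432 PPM in oxidized and at 415, 319 and 414 PPM in reduced cells, which overlapped, with a difference of 0.19. At 72 hr it stood at 488, 555 and 678 PPM in oxidized and at 263, 219 and 327 PPM in reduced cells, which did not, with a difference of 1.07 (adjusted p = 1.4e-04). DOT6 kept both calls under every alternative run. The difference between the ages was not past the threshold (0.87, adjusted p = 0.210). Its paralogue TOD6 averaged 75.8 PPM with 0.26 (adjusted p = 0.602), and STB3, the protein that binds RRPE, had a difference of -0.27 (adjusted p = 0.726).

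CRF1, a corepressor of ribosomal protein genes, was lower in oxidized cells, with an averaged difference of -1.15 (SE 0.37, adjusted p = 0.0332). This call was lost without any of 7 single libraries (oxidized 48 hr replicate 1, reduced 48 hr replicates 1 and 2, oxidized 72 hr replicates 1 and 3 and reduced 72 hr replicates 2 and 3), with an adjusted p of 0.0549 to 0.117. It stood at 11.1, 18.6 and 31.6 PPM in oxidized and 41.5, 67.1 and 30.1 PPM in reduced cells at 48 hr, and at 6.98, 21.6 and 0 PPM against 24.8, 56.5 and 33.8 PPM at 72 hr. Members with a short PAC had a median averaged difference of -0.07 (30 tested) and those without -0.11 (19 tested), and at 72 hr, where DOT6 separated, -0.21 and -0.16. These medians are descriptions and were not compared by a test.

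**Figure D5:**
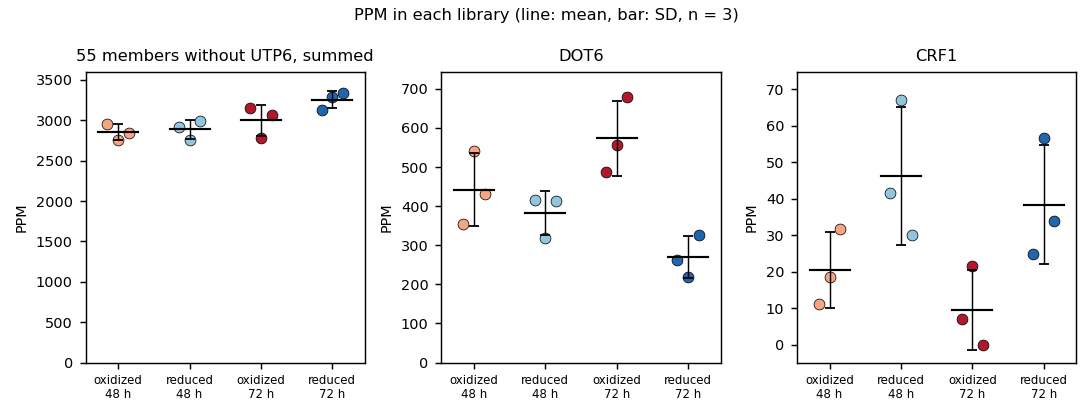
Summed PPM of the 55 members without UTP6 (left), of DOT6 (middle) and of CRF1 (right) in each library, with the mean (line) and SD (bar) of 3 libraries. At 72 hr DOT6 is at 488 to 678 PPM in oxidized and 219 to 327 PPM in reduced cells, while the sums of the members overlap.

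Markers of daughter cells and of dividing cells were read beside these results. By microscopy the study counted more bud scars and fewer budding cells in the oxidized than in the reduced subpopulation. The 8 daughter-specific genes were all above 0 in the averaged redox difference (median 0.37), against 41.3% of all tested genes. None of these 8 was past the threshold, against 11.9% of all tested genes. Their summed level was 1063 to 1281 PPM in oxidized and 838 to 1158 PPM in reduced cells at 48 hr, and 1043 to 1165 PPM against 714 to 1026 PPM at 72 hr. Of 8 histone genes 1, HHT1, was lower in oxidized cells past the threshold. Of all tested genes 9.61% passed at 72 hr and 11.9% in the average. HHT1 stood at -0.69 at 72 hr (adjusted p = 0.0082 in limma, and at most 0.0475 with 1 library left out). In the average it stood at -0.44 (adjusted p = 0.0156, and 0.0623 without reduced 48 hr replicate 2). The summed level was 4064 to 4900 PPM in oxidized against 4745 to 5227 PPM in reduced cells at 48 hr, and 4704 to 4811 PPM against 4920 to 6384 PPM at 72 hr. No gene of either list was at 0 in all libraries. The part of daughter cells or of dividing cells in the values of RRP46, RRP1 and DOT6 was not tested.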

How the data were processed

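Yeast RNA was sequenced from the 3′ end with oligo-dT primers that carry a molecular identifier (UMI). Per the labels and the study's methods the authors demultiplexed with bcl2fastq 2.17, aligned with Bowtie2 (version not given in the sources used here) to sacCer3, removed duplicates by identifier and counted reads from 350 bp before to 200 bp after each termination site. The deposited values are these reads scaled by the total of the library (PPM), recorded as another unit because 553 genes stand on rows split by commas. Those rows were split at the commas, 2 genes on broken rows were left out and 6645 genes were kept. Whole reads were recovered from the PPM for all values (within 0.05 of a read). They were used for read numbers, the exact intervals of read ratios, the chi-square of the replicate spread and the depth of simulated libraries. The authors' test, the method of Anders and Huber, needs counts, and no count model was fitted to the recovered reads.

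Genes averaging at least 20 PPM were tested on log2(PPM + 10) in 1 fit with 4 group means in R 4.3.3 with limma 3.58.1 (lmFit, eBayes with trend), 7 comparisons, each adjusted by Benjamini-Hochberg at 0.05 over 4776 genes. The code of the fit was run on simulated libraries with the same spread beyond counting noise set for every gene. That run does not check the calls of single genes made here. Each difference is that of oxidized from reduced cells, or of 72 hr from 48 hr. The groups are 3 biological replicates. The p-values rest on the spread between these, which limma draws toward that of genes of similar level (45.1 prior degrees of freedom). Positions, promoters and windows come from RefSeq R64, which matched 5923 genes and all 56 members. The windows of 30 members overlap that of a neighbour, 3 of them on the same strand, and use of strand in the counting is not given in the sources used here. Python 3.11.15 with pandas 2.3.3 and matplotlib 3.10.9 made tables and figures.

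Named by rule were members past the threshold in any comparison, the 5 of highest and 3 of lowest level, the most abundant of each role, members with duplicated values or with many zeros, and in the average up to 3 called genes of each list of other biogenesis factors and regulators. Other genes were chosen after their values were seen. The members and lists were chosen with earlier results of these data known. The alternatives were other pseudocounts (1 and 50 PPM), other filters (none and 50 PPM), the replicate block, scaling by median of ratios, single libraries left out, and a fit of the compared groups alone.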

Additional observations from a re-analysis of the deposited data

How the results depend on the processing

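Adding the replicate number as a block left the count of members past the threshold in the averaged redox comparison at 2, RRP46 (adjusted p = 0.0155) and RRP1 (adjusted p = 0.0156), and changed no other call of the members, while RLP7 at 48 hr, RPL41A at 72 hr and GAR1 with age lost theirs. Of 18 same-numbered pairs of libraries 0 had deviations correlated above 0.1. This could not exclude a pairing by culture, because counting noise made up much of the spread between replicates in the typical gene. The chi-square per degree of freedom of this spread against that noise had a median of 1.34 over all tested genes. It was over the 95% point of counting noise alone in 1158 of 4776 tested genes and in 13 of 49 members. With a pseudocount of 1 PPM, or with genes of at least 50 PPM only, which leaves RRP1 untested, the count was 1, RRP46 in both cases. With genes of at least 50 PPM the median member value of the change of the redox difference with age was 0.11 in place of -0.07. Median-of-ratios scaling called RRP14 besides those (adjusted p = 0.0497). With 1 library left out at a time the count was 0 to 4 in the average, 0 to 1 at 48 hr (UTP11) and 0 to 1 at 72 hr (NOC3 or RRP36), and it was 0 in the average only without oxidized 72 hr replicate 2. Signs turned 12 times, in 5 averaged redox differences near 0 that passed nowhere. With median-of-ratios scaling UTP6 was at 0.0201 and UTP22 at 0.0252, and with 1 library left out UTP6 ranged over -0.101 to 0.0167, NOP56 over -0.0279 to 0.159, NOP58 over -0.0643 to 0.451, UTP13 over -0.286 to 0.0429 and UTP22 over -0.203 to 0.236. CRF1 was not past the threshold with a pseudocount of 1 PPM (adjusted p = 0.0848) or with no filter (0.0518), nor HHT1 with median-of-ratios scaling (0.0528), MRT4 with no filter (0.0506) or NAF1 with a pseudocount of 1 PPM (0.0607) or no filter (0.0767), nor RLP7 with no filter (0.0540) or in a fit of the 48 hr libraries alone (0.0727). GAR1 lost its call with a pseudocount of 1 PPM (0.0915), no filter (0.0803), median-of-ratios scaling (0.0910) or the replicate block (0.0503), and RPL41A lost its call at 72 hr with no filter (0.0794), that scaling (0.134), the block (0.0595) or the 72 hr libraries alone (0.0749). At 4.15 to 11.1 PPM per read, a member near 20 PPM rests on a few reads of a library.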
